A study of Homo sapiens with 2 samples.

Results

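The polycistron that runs from miR-17 to miR-92 is a stretch of chromosome 13 whose single primary transcript, MIR17HG, holds 6 microRNA (miRNA) hairpins. Its products were measured with 7 assays, taken by name: miR-17-5p, miR-17-3p, miR-18a, miR-19a, miR-19b, miR-20a and miR-92. These are 7 of 365 miRNA assays on a quantitative PCR card, and each name stood on 1 assay. The card was run on CL1-5 cells, an invasive human lung adenocarcinoma line. There was 1 RNA sample of cells with the empty plasmid pcDNA3.1 (the control, called vector cells here) and 1 of cells made to express ANGPTL1, a secreted angiopoietin-like protein. Both kinds of cells were stably modified and had been under G418, an antibiotic used for selection, for 4 weeks. Whether they were a clone or a pool, and which promoter drove ANGPTL1, is not given in the sources used here. With 1 sample per group no difference carries an error or a test, and each value describes these 2 RNA samples.

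A primary miRNA transcript is cut by Drosha into hairpins, and Dicer cuts each hairpin into a duplex of a 5p and a 3p strand, of which usually 1 is kept by an Argonaute protein. Products of a polycistron are thus transcribed together, but cutting, strand choice and decay can differ for each. This transcript is induced by MYC and E2F factors and is known as an oncogenic cluster that is amplified or highly expressed in lymphomas and lung cancers. A miRNA finds its targets mainly through its seed, bases 2 to 8, so that products with a shared seed have overlapping targets.

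In GRCh38.p14 the 6 hairpins lie on the plus strand at chr13:91350605-91351391, a span of 787 bases, in the order miR-17, miR-18a, miR-19a, miR-20a, miR-19b-1 and miR-92a-1. All 7 names were matched to RefSeq mature sequences. The card names miR-17-5p and miR-17-3p give the arm. The other 5 are old names without an arm and were read as the arm for which the old name is known to have stood, since the deposited tables hold no assay sequence. The mature sequences are shown because the seeds, in capitals, sort the members into families.
miR-17-5p: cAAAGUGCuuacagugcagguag
miR-20a: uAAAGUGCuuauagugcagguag
miR-18a: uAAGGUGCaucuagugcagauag
miR-19a: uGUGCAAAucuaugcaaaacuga
miR-19b: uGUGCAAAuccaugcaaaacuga
miR-92: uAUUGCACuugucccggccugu
miR-17-3p: aCUGCAGUgaaggcacuuguag

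miR-17-5p and miR-20a share the seed AAAGUGC and 21 of 23 bases, differing by C1U and C12U (the miR-17-5p base, the position from the 5′ end, the miR-20a base). Both are known to repress CDKN1A and E2F1, regulators of the cell cycle. miR-18a, which represses the matrix protein CTGF, has a related seed with A4G relative to miR-17-5p. miR-19a and miR-19b, known as main oncogenic components of the cluster in lymphoma, share the seed GUGCAAA and differ by U11C alone. miR-92, which represses BCL2L11 and the integrin ITGA5, has the seed AUUGCAC. miR-17-3p comes from the hairpin of miR-17-5p, and its seed CUGCAGU is found in no other member. In the miR-17 hairpin (chr13:91350605-91350688, plus strand, 84 bases), shown because 2 of the 7 assays read its arms, the capitals mark miR-17-5p first and miR-17-3p second.
miR-17 hairpin: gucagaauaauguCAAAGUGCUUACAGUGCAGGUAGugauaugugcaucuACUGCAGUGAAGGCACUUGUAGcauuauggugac

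Levels are given as the threshold cycle (Ct), the PCR cycle in which the fluorescence of the assay passes a fixed line, where 1 cycle less stands for about 2 times the template if each cycle doubles it. An assay was counted as detected below cycle 35, of 40 cycles run. The small nucleolar RNA RNU48, the reference, crossed at 20.79 in vector cells and 21.21 in ANGPTL1 cells. Of the 365 miRNA assays 157 were detected in vector cells, 158 in ANGPTL1 cells and 145 in both, with median cycles of 29.36 and 29.90 over those detected in each sample. Of 8 assays for epithelial miRNAs, 2 were detected, miR-200c and miR-203, and those for miR-200a, miR-200b, miR-141, miR-429 and miR-205 were at cycle 35 or later in both samples. Of 9 assays for blood, muscle and liver miRNAs 2 were below cycle 35 in either sample, the earliest at 32.73, and both assays of the endothelial miR-126 were detected. ANGPTL1 messenger RNA is not read by the card. All 7 assays of the polycistron were detected in both samples, and 6 of them were earlier than the median detected assay in each.

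The 7 assays of the polycistron differed widely in level within each sample. miR-92 was the earliest, at cycle 22.04 in vector cells and 22.52 in ANGPTL1 cells. miR-19b followed at cycle 22.64 and 23.07, and miR-20a at cycle 23.25 and 23.44. The chromosome 13 hairpins of these 3 lie at the 3′ end of the array. The sequences of miR-19b and miR-92 are also encoded on chromosome X, and the assays do not tell the loci apart. These 3 ranked 4th, 11th and 12th among all detected miRNA assays in vector cells, and 7th, 9th and 11th in ANGPTL1 cells. miR-17-5p stood at cycle 25.75 in vector cells and 26.16 in ANGPTL1 cells, and miR-19a at 26.11 and 26.35. miR-18a stood at cycle 28.96 and 29.18. These 3, from the 5′ end of the array, were each later than the other group in both samples. miR-17-3p was last, at cycle 32.41 in vector cells and 33.03 in ANGPTL1 cells. The order of the 7 was the same in both samples.

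**Figure D1:**
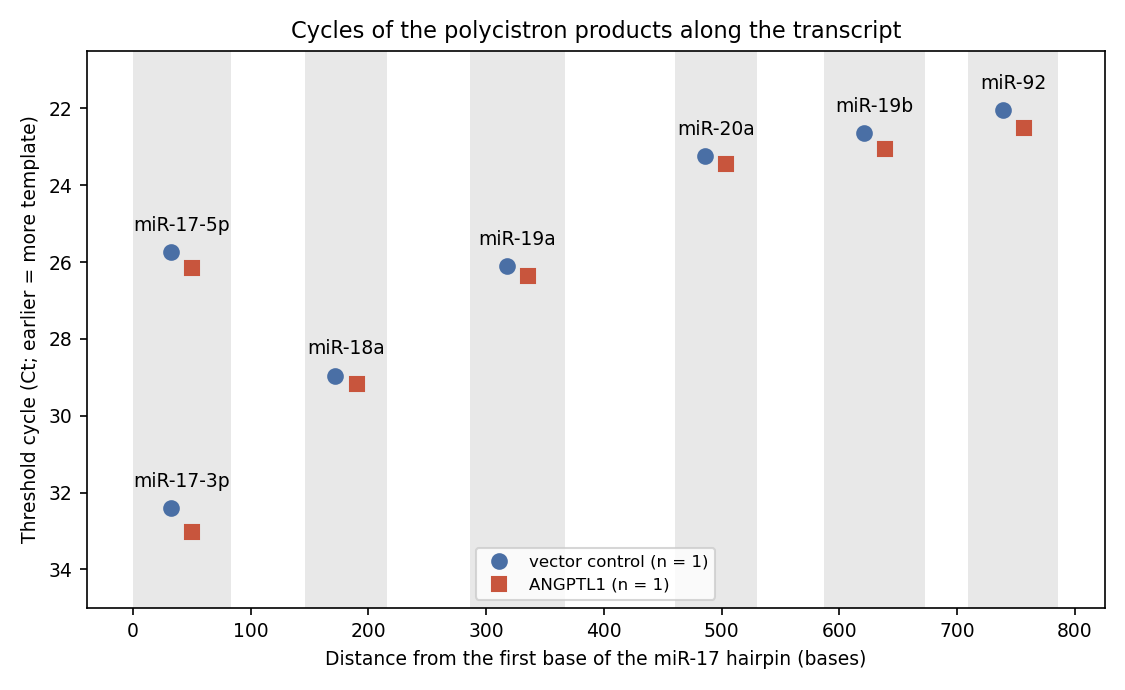
Threshold cycle (vertical axis, inverted so that more template is higher) of each assay against the position of its hairpin, in bases from the start of the miR-17 hairpin; grey bands are the 6 hairpins, circles the vector control and squares ANGPTL1 cells, with 1 sample each. miR-20a, miR-19b and miR-92 lie between cycles 22.04 and 23.44, miR-17-5p, miR-18a and miR-19a between 25.75 and 29.18, and miR-17-3p at 32.41 and 33.03. miR-19b and miR-92 are drawn at their chromosome 13 hairpins, although their sequences are also encoded on chromosome X.

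From miR-92 to miR-17-3p the members spanned 10.37 cycles in vector cells and 10.51 in ANGPTL1 cells, about 1323-fold and 1458-fold under doubling. Without miR-17-3p the spans were 6.92 and 6.66 cycles. Neighbours in the order were closer, with miR-19b 0.60 and 0.55 cycles after miR-92, miR-20a 0.61 and 0.37 after miR-19b, and miR-19a 0.36 and 0.19 after miR-17-5p. No replicate spread is at hand to tell such neighbours apart. Cycles of different assays also carry the efficiency of each assay in reverse transcription and PCR, which is not given in the sources used here and whose part in these gaps was not tested. The percentage of G and C in the mature sequence was 54.5 in miR-92 and 39.1 in miR-19b and in miR-20a. It was 47.8 in miR-17-5p, 34.8 in miR-19a, 43.5 in miR-18a and 50.0 in miR-17-3p. Whether base composition has a part in the cycles was not tested.

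Members from the same hairpin, with similar sequences or with neighbouring hairpins still differed in level. The arms of the miR-17 hairpin, which are made in equal number when the hairpin is cut, were 6.66 cycles apart in vector cells and 6.87 in ANGPTL1 cells. Under doubling this is 101-fold and 117-fold more miR-17-5p than miR-17-3p. miR-19a was 3.47 cycles later than miR-19b in vector cells and 3.28 in ANGPTL1 cells, although the mature sequences differ by 1 base. The miR-19b assay may also read template from chromosome X. miR-17-5p was 2.50 and 2.72 cycles later than miR-20a, which has the same seed. miR-18a was 3.21 and 3.02 cycles later than miR-17-5p, whose hairpin is its neighbour on the transcript. Cutting of the miR-18a hairpin is known to depend on the RNA-binding protein hnRNP A1. The card does not measure this protein, and its part in these gaps was not tested.

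As shares of the summed level of the 7 members (2 to the power of minus delta Ct, where delta Ct is the cycle of the assay minus that of RNU48), miR-92 made up 44.7% in vector cells and 42.1% in ANGPTL1 cells. miR-19b made up 29.5% and 28.8%, and miR-20a 19.3% and 22.3%. These 3 together held 93.5% and 93.2% of the sum. The shares of miR-17-5p were 3.42% and 3.38%, those of miR-19a 2.66% and 2.96%, those of miR-18a 0.367% and 0.417%, and those of miR-17-3p 0.0338% and 0.0289%. The mix was therefore close between the samples, with a largest difference of 2.95 percentage points, for miR-20a. The shares do not depend on RNU48 but assume equal assay efficiency. Those of miR-92 and miR-19b may include template from chromosome X, which the assays do not tell apart. The summed level relative to RNU48 was 0.941 in vector cells and 0.957 in ANGPTL1 cells.

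The comparison of ANGPTL1 cells with the control asked whether these products moved together. In cycles all 7 were later in ANGPTL1 cells, and so was RNU48, by 0.42. The log2 ratio was delta Ct of vector cells less that of ANGPTL1 cells, and a positive value means a higher level relative to RNU48 in ANGPTL1 cells. Among the pair with the miR-17 seed, miR-20a had delta Ct 2.46 in vector cells and 2.23 in ANGPTL1 cells, which gives a log2 ratio of 0.23. miR-17-5p had delta Ct 4.96 and 4.95, a log2 ratio of 0.01. The sample of ANGPTL1 cells was thus 1.17-fold higher for miR-20a and level with the control for miR-17-5p.

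miR-18a had delta Ct 8.18 in vector cells and 7.97 in ANGPTL1 cells, which gives a log2 ratio of 0.21. miR-19a had delta Ct 5.32 and 5.14, a log2 ratio of 0.18. miR-19b had delta Ct 1.85 and 1.86, a log2 ratio of -0.01. The pair with the miR-19 seed thus held 1 member slightly higher in ANGPTL1 cells and 1 level with the control. miR-92 had delta Ct 1.25 and 1.31, a log2 ratio of -0.06. miR-17-3p had delta Ct 11.62 and 11.82, a log2 ratio of -0.20, the lowest of the 7 and the one with the least template. Relative to RNU48, 4 members lay above 0 and 3 below. Without the RNU48 reference all 7 lay below 0, from -0.62 for miR-17-3p to -0.19 for miR-20a, and the median of all detected assays was then -0.43. With the median of all detected assays as reference, miR-20a was at 0.24, miR-17-5p at 0.02, miR-92 at -0.05 and miR-17-3p at -0.19.

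None of the 7 members (0 of 7) was 2-fold higher or lower in ANGPTL1 cells. Of the 145 miRNA assays detected in both samples 18 were (12.4%), 11 of them higher (7.59%) and 7 lower (4.83%). A count of 0 among 7 is thus near the background. At 1.5-fold the counts were 0 of 7 members and 52 of 145 assays (35.9%), and at 4-fold 0 of 7 and 6 of 145 (4.14%). All 7 members lay within 0.25 of 0 on the log2 scale, a limit chosen after the values were seen, against 53 of 145 (36.6%). The median log2 ratio of the members was 0.01 and that of all 145 was -0.01. The median size of the log2 ratio, without its sign, was 0.18 over the members, 0.36 over the 145, and 0.33 over the 111 other assays in the same span of mean cycles. Of those 111, 14 were past 2-fold (12.6%).

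The log2 ratios of the members ranged over 0.43, from miR-17-3p to miR-20a, a 1.35-fold difference, while their levels ranged over 10.37 and 10.51 cycles. Over the 21 pairs of members the median difference between log2 ratios was 0.20. Over the 10440 pairs of detected assays it was 0.59. These differences between members need no reference RNA. Whether 0.43 exceeds the technical error of the card cannot be said from 1 sample per group, and the late cycle of miR-17-3p is where an assay has the least template. Without miR-17-3p the range was 0.29.

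**Figure D2:**
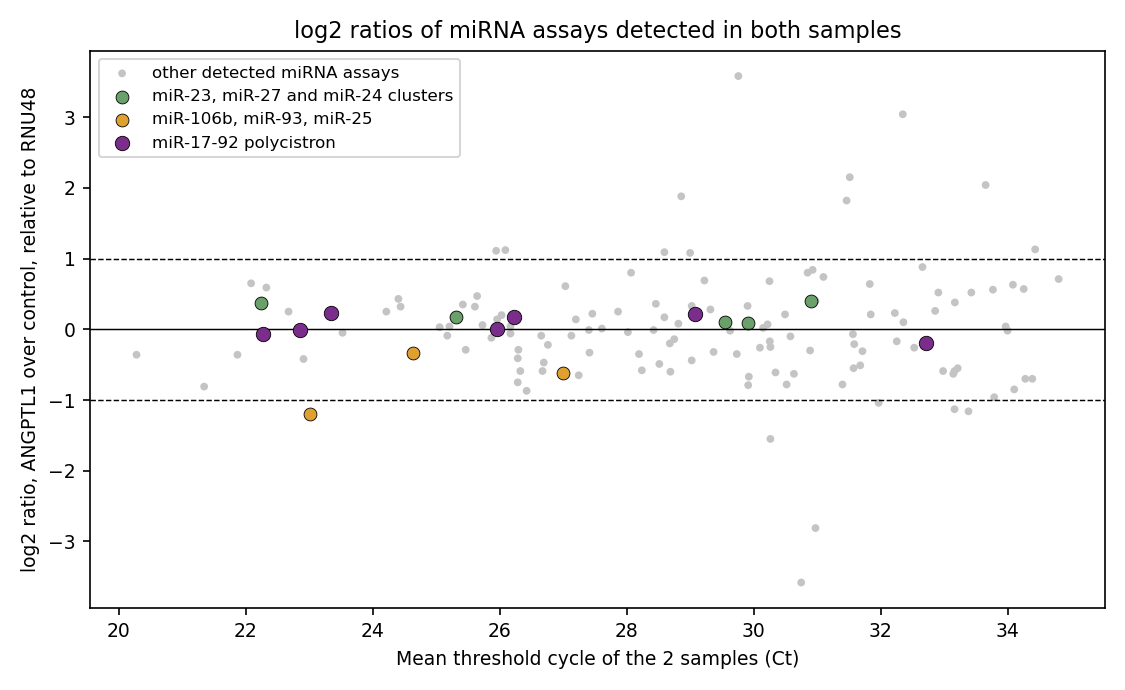
The log2 ratio of ANGPTL1 cells over the control relative to RNU48 (vertical axis) against the mean threshold cycle of the 2 samples (horizontal axis), 1 point for each of the 145 miRNA assays detected in both; dashed lines mark 2-fold. The 7 members of the polycistron lie between -0.20 and 0.23 at cycles early and late, whereas miR-106b, miR-93 and miR-25 lie between -1.20 and -0.34.

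The paralog cluster in an intron of MCM7, which encodes relatives with the seeds of miR-17 and miR-92, gave other values. miR-106b stood at cycle 24.25 in vector cells and 25.01 in ANGPTL1 cells, miR-93 at 22.20 and 23.82, and miR-25 at 26.48 and 27.52. Their log2 ratios were -0.34, -1.20 and -0.62, each below the lowest value of the polycistron described here. Their median was -0.62 and their range 0.86, with cycles that spanned 4.28 in vector cells and 3.70 in ANGPTL1 cells. The 5 assays of the unrelated polycistrons with miR-23, miR-24 and miR-27, which lie at other loci, had log2 ratios from 0.09 to 0.40 with a median of 0.18. These ranged over 0.31, and their cycles over 8.68 and 8.65. A narrow range of ratios beside a wide range of levels was therefore seen there too, although these 5 assays pool more than 1 polycistron. No test of a difference between clusters was possible.

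Relatives of the polycistron on chromosome X share the exact mature sequence of 2 members. The mature sequences of miR-19b and miR-92 are also encoded there, at 2 loci each in all, within the cluster of miR-106a to miR-363 (chrX:134169378-134170278, minus strand), so that the assays cannot say which locus their template came from. The X cluster was read by 3 assays with names of its own, miR-18b, miR-20b and miR-363. The sequences of miR-18b and miR-20b are shown, with the seed in capitals, because they differ from their chromosome 13 relatives by 1 and 2 bases.
miR-18b: uAAGGUGCaucuagugcaguuag
miR-20b: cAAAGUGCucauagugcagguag
The differences are A20U from miR-18a to miR-18b, and U1C and U10C from miR-20a to miR-20b. miR-20b stood at cycle 29.25 in vector cells and 29.39 in ANGPTL1 cells, 6.0 and 5.95 cycles later than miR-20a. miR-18b was past the limit in both samples, at 35.10 and 35.86, and with its cycle set to 35 it was at least 6.04 and 5.82 cycles later than miR-18a. miR-363 was also past the limit, at 35.74 in vector cells and 40 in ANGPTL1 cells, which gives no ratio. Of these 3 assays, miR-20b alone was thus detected, slightly earlier than the median detected assay in each sample, and its log2 ratio was 0.28. miR-106a, which the X cluster also encodes, was not analysed, so its level is not known here. Whether the assays of such similar sequences read each other was not tested.

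Because products with a shared seed act on overlapping targets, the members were set beside the other detected assays with their seed. For the miR-17 seed these were miR-93, miR-106b and miR-20b. miR-106a, which also has this seed, was not analysed, so the sums and shares leave it out. In vector cells miR-93 was the highest of the 5, at 0.376 of RNU48, against 0.182 for miR-20a, 0.0909 for miR-106b, 0.0321 for miR-17-5p and 0.00284 for miR-20b. In ANGPTL1 cells miR-20a was the highest, at 0.213, followed by miR-93 at 0.164, miR-106b at 0.0718, miR-17-5p at 0.0324 and miR-20b at 0.00345. miR-20a was 1.05 cycles later than miR-93 in vector cells and 0.38 cycles earlier in ANGPTL1 cells, an exchange of order that does not depend on the reference. It does depend on the efficiency of each assay, as do the sums and shares of this family. No replicate spread is at hand to tell assays 0.38 cycles apart. The summed level of the 5 was 0.684 in vector cells and 0.485 in ANGPTL1 cells, which gives a log2 ratio of -0.50. The part of that sum from miR-17-5p and miR-20a was 31.3% in vector cells and 50.7% in ANGPTL1 cells. In level, those 2 summed to 0.214 and 0.246 of RNU48, while miR-93 alone stood at 0.376 and 0.164.

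For the miR-92 seed, miR-25 and miR-32 were the other detected assays, and miR-363 and miR-367 were not detected. miR-92 stood at 0.420 of RNU48 in vector cells and 0.403 in ANGPTL1 cells, miR-25 at 0.0194 and 0.0126, and miR-32 at 0.000862 and 0.00114. miR-92 made up 95.4% and 96.7% of the sum, and the log2 ratio of the sum was -0.08, although that of miR-25 was -0.62. For the miR-19 seed, both assays are members of the polycistron, and their sum was 0.302 in vector cells and 0.304 in ANGPTL1 cells. The sequences of miR-19b and miR-92 are also encoded on chromosome X, so their template cannot be assigned to chromosome 13 alone. For the miR-18 seed only miR-18a was detected, at 0.00345 and 0.00399.

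**Figure D3:**
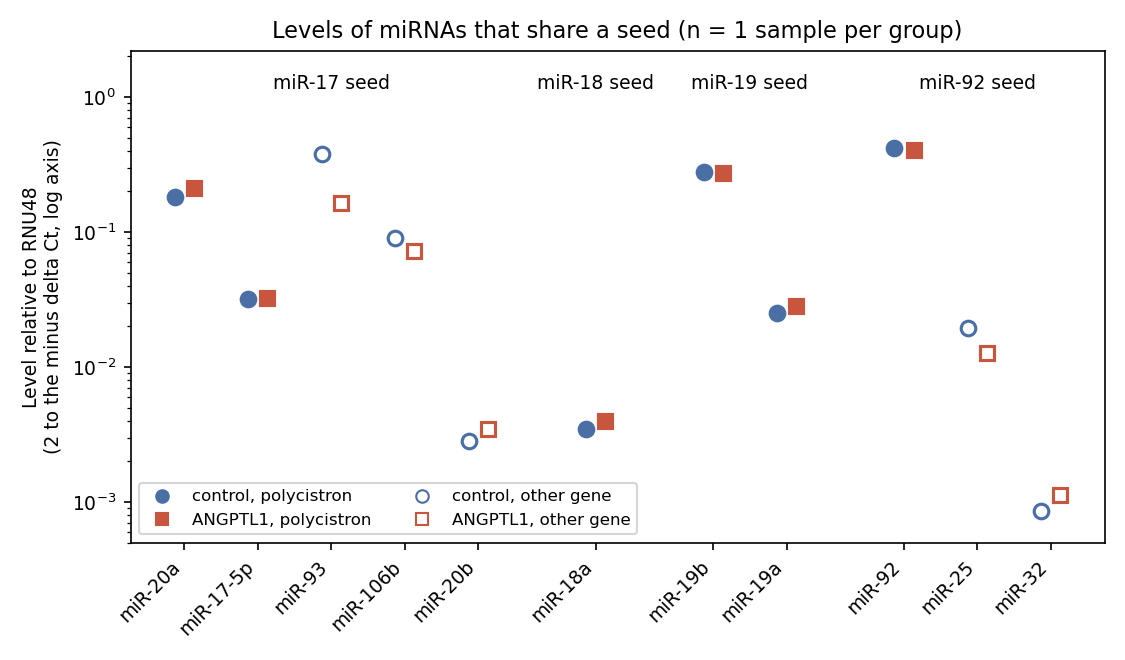
Level relative to RNU48 (2 to the minus delta Ct, log axis) of each assay detected in both samples, grouped by seed; circles are the vector control and squares ANGPTL1 cells, filled for the polycistron and open for other genes, with 1 sample each. In the miR-17 seed group miR-93 is above miR-20a in vector cells (0.376 against 0.182) and below it in ANGPTL1 cells (0.164 against 0.213). miR-19b and miR-92 are filled, although their sequences are also encoded on chromosome X. Setting levels of different assays side by side assumes equal assay efficiency.

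The detected assays outside these families whose delta Ct values were nearest to the members' medians (4.96 in vector cells, 4.95 in ANGPTL1 cells) were miR-28, miR-132 and miR-320. Their distances, as Euclidean distance over the 2 samples, were 0.0922, 0.151 and 0.171 cycles. miR-28 had delta Ct 5.03 and 4.89, miR-132 had 4.81 and 4.93, and miR-320 had 5.13 and 4.93. With 2 samples such closeness says that their levels relative to RNU48 were alike and no more.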

How the data were processed

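Threshold cycles came from a TaqMan array card for human miRNAs after multiplexed reverse transcription of 500 ng of total RNA, per the labels' protocols. The deposited tables hold the average threshold cycle, delta Ct relative to RNU48, and a fold change, which is the ratio of ANGPTL1 cells over control, per the file headers. How many wells were averaged, and with which threshold and software, is not given in the sources used here. Log2 ratios were computed from the deposited delta Ct with Python 3.11.15, pandas 2.3.3 and numpy 2.4.6. They differed by at most 0.02 from those recomputed from the cycles, and from the log2 of the authors' fold change by at most 1.8e-07. The 2 linear columns that repeat delta Ct were not used. Samples were grouped by the treatment label. Detection meant a cycle below 35, and a difference meant 2-fold. Assays at or past the limit have no ratio. The ratio code was tested on simulated data. Named were the members, other miRNAs of their seeds and paralog clusters, the clusters with miR-23, miR-24 and miR-27, and the 3 nearest assays. The members and lists were chosen with earlier results of these data known. miR-106a was not analysed here. Sequences are those of RefSeq on GRCh38.p14, matched by name.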

Additional observations from a re-analysis of the deposited data

How the results depend on the processing

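Every count of members past the fold threshold was 0 under all 10 alternatives: 4 other ways to form the ratio (RNU48 recomputed from the cycles, no reference, the median of all detected assays, the authors' fold change table), 1.5-fold and 4-fold thresholds, detection limits of 32 and 38, and 2 smaller sets of members. The 4-fold threshold, the other detection limits and the smaller sets could not raise a count of 0. RNU48 recomputed from the cycles and the authors' table gave almost the same ratios as the main setting. So did the median as reference, since the median log2 ratio of all detected assays was -0.01. The count was thus open to change only without a reference and at 1.5-fold. Without a reference the median log2 ratio was -0.41, since every ratio is lower by the 0.42 cycles of RNU48 (0.43 for miR-18a by rounding). A detection limit of 32 leaves out miR-17-3p, as does dropping it, and both gave spans of 6.92 cycles in vector cells and 6.66 in ANGPTL1 cells and a range of log2 ratios of 0.29. Without miR-19b and miR-92 the median was 0.18 and the spans were 9.16 and 9.59 cycles, and the range of log2 ratios was 0.43 as before. With 1 sample a group, leaving out a replicate was not an option. No paired analysis was possible because there was a single sample per group. Differences as small as those of the members cannot be set against any error here, and miR-17-3p, at cycles 32.41 and 33.03, has the least template.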
